A study of Rattus norvegicus with 9 samples.

Results

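The mitochondrial ribosomal protein genes were taken as every ID of the count table whose gene name is Mrpl or Mrps followed by digits and at most 1 letter, with pseudogene names left out. In all, 75 of the 30562 IDs matched. Because Mrps17 stood under 2 IDs, of which the better counted was kept, they gave 74 genes, 44 with Mrpl names and 30 with Mrps names. At least 1 count was recorded for 73 of them, and Mrps21l was listed at 0 in every library. Of the 74, 53 (32 Mrpl and 21 Mrps) passed the filter on low counts and were tested among 7073 genes.

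Mitochondria carry their own ribosome, which translates the few membrane proteins of the respiratory chain and ATP synthase that mitochondrial DNA encodes. All of its proteins are encoded in the nucleus, made in the cytosol and imported, and Mrpl and Mrps names stand for proteins assigned to the large and the small subunit. Some descend from bacterial ribosomal proteins and some are found only in mitochondria. Neurons depend heavily on oxidative phosphorylation, so brain tissue needs this machinery throughout life.

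The study measured poly(A) RNA of the hippocampal region of male Sprague-Dawley rats, 6 to 8 weeks old when they entered the study, in 3 groups of 3 libraries each. Ctrl rats were normal controls. Model rats were made diabetic with a high-fat diet for 4 weeks and 1 injection of streptozotocin at 50 mg/kg into the abdominal cavity, were accepted at a blood glucose of at least 16.7 mmol/L, and then went through 5 weeks of changing mild stressors. ChryM rats received chrysophanol, a plant anthraquinone, by gavage for 14 days. The labels do not give the dose, what the letter M stands for, or whether other groups were gavaged with vehicle, and that the ChryM rats had gone through the diabetes and stress procedure follows from the study's title. The Model group therefore combines diet, streptozotocin, hyperglycaemia and stress, whose parts cannot be told apart. Nothing in the labels says that each library came from its own animal, so p-values cover only differences among these 9 libraries, possibly technical ones.

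Library totals ran from 631119 to 866048 counts, which is shallow for tissue RNA-seq. The library kit preserves strand, but how strand was used in counting is not given in the sources used here. Among the 13 mitochondrial mRNAs, Mt-nd6, whose transcript alone comes from the opposite strand of mitochondrial DNA, had a mean of 42040 FPKM (fragments per kilobase of transcript, scaled to the library total), 5.67 times the next. Whether the counts under a gene's name are reads of its own strand was not tested. Marker genes of other cell types also differed between the groups: the summed level of 6 choroid plexus markers was 1730.2 to 1791.1 CPM (counts scaled to the library total) in Ctrl, 26.9 to 44 in Model and 75.1 to 86.9 in ChryM. The sum of 8 oligodendrocyte markers was 15406 to 16484 CPM in Ctrl, 8428 to 9338 in Model and 14935 to 16360 in ChryM. In bulk tissue, fewer cells of a type and less RNA per cell cannot be told apart.

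Promoter windows, from 250 bases before to 50 bases after the annotated start (RefSeq, assembly GRCr8), were found for 59 of the 74 genes. In them 5 motifs were searched by their exact letters on both strands, named after factors or boxes known from promoters of genes for mitochondrial proteins and housekeeping genes. The YY1 motif AAGATGGC stood in 14 of the 59 windows (23.7%) against 3.92% of 18999 protein-coding promoters. The ETS motif CCGGAAG stood in 20 (33.9% against 11.2%) and the NRF1 motif GCATGCGC in 5 (8.47% against 3.22%). The GC box GGGCGG was found in 30 (50.8% against 43.1%) and CCAAT, the box bound by NF-Y, in 25 (42.4% against 38.4%). The letters of these motifs do not contain one another, and the median GC content was 55.7% in the windows of these genes and 55.3% in all protein-coding windows. No match to any of the 5 was found for 11 genes. A match describes letters in this window and is not a shown binding site.

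**Figure D1:**
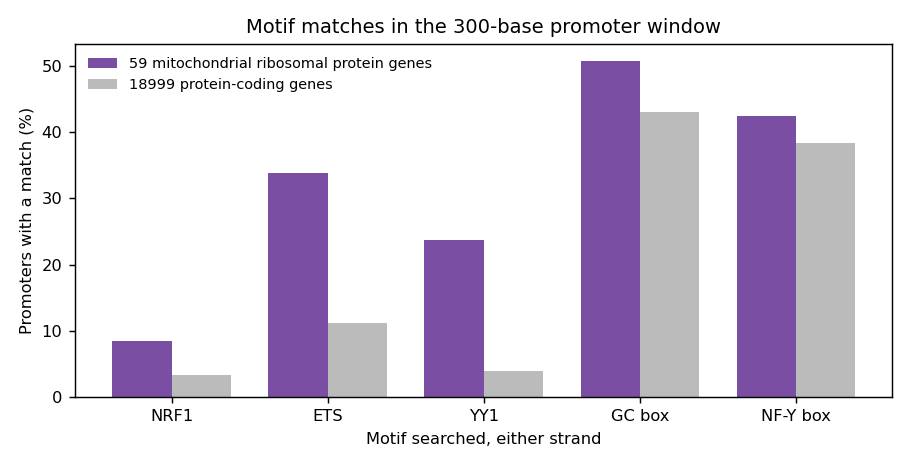
Share of 300-base promoter windows with at least 1 exact match to each of 5 motifs on either strand, for 59 mitochondrial ribosomal protein genes and 18999 protein-coding genes. The YY1 bars differ most in ratio, at 23.7% and 3.92%.

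The YY1 matches are shown because they had a shared place, though where this motif lies in other promoters was not looked at. Its letters contain ATG, the letters of a start codon, and whether the matches lie at the start of translation was not tested. Of the 14 matches, 12 began within 50 bases of the annotated start and 12 read in the direction of the gene, and 10 began at or after the start itself. Those of the 5 genes with the most counts are printed 5′ to 3′ with 10 bases on each side, the motif in capitals (RefSeq, GRCr8):
Mrpl49, chr1:212779294-212779321, minus strand: tggaggagcaAAGATGGCagcaaatgta
Mrps7, chr10:101342638-101342665, plus strand: gatagcggccAAGATGGCtgcccccgca
Mrps18a, chr9:22367363-22367390, minus strand: gtgtgttcccAAGATGGCggccctcagg
Mrpl48, chr1:164351536-164351563, minus strand: ctcggtaacaAAGATGGCaactaatact
Mrpl42, chr7:32028486-32028513, minus strand: agattgaagcAAGATGGCgagcgcgcgg

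The match began at base 17 of the annotated transcript in Mrpl49, at base 7 in Mrps7, at base 1 in Mrps18a and at base 20 in Mrpl42, and at base -177, before the start, in Mrpl48. None of the 7 genes called in any comparison below was among the 14 with a YY1 match, and Mrpl16, the most counted of them, had no window in the table. The 250 bases before the start are printed for 3 of the called genes, those with the smallest p that had a window, with motif matches in capitals (RefSeq, GRCr8):
Mrpl47, chr2:117447362-117447611, minus strand: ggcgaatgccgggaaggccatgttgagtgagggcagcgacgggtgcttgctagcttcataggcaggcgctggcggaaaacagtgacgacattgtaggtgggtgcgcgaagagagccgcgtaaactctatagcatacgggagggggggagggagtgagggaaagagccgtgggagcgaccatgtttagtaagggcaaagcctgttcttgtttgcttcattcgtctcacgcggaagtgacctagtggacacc
Mrpl54, chr7:9103275-9103524, plus strand: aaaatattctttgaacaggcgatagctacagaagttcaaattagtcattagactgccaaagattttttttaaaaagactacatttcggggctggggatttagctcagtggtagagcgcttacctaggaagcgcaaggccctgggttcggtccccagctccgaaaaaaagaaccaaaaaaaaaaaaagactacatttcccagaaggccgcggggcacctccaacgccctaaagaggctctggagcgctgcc
Mrpl23, chr1:207116680-207116929, plus strand: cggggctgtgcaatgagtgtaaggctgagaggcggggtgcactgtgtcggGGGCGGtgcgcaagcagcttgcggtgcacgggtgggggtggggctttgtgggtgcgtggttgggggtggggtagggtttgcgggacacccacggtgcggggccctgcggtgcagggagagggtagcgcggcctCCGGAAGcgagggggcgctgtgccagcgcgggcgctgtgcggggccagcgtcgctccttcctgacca

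Of these 3, Mrpl23 alone held matches: a GC box 200 bases and an ETS motif 67 bases before the start. The Mrpl54 window holds a stretch of 30 bases, agcgcaaggccctgggttcggtccccagct, that recurs in 76 of 27456 other promoter windows. It lies within a tRNA-like run followed by A-rich sequence, the form of the rat ID repeat, a short element copied from the BC1 RNA gene. The best such stretch of Mrpl47 recurred in 1 other window and none of Mrpl23 recurred.

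Levels of different genes were compared as FPKM, which divides by length. The median of the 73 genes with counts was 10.7 FPKM (quartiles 6.78 and 20.1), against 2.15 for all IDs with counts, and that of the 53 tested genes 14.6, against 9.97 for all genes tested. Mrpl names had a median of 9.76 and Mrps names of 12.7 FPKM. Genes with a bacterial homologue stood at 11.7 and mitochondria-specific genes at 9.74 FPKM. The classes therefore lay close together, while single genes spread far more widely.

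The highest gene was Mrpl16, a bacterial-type protein of the large subunit core, at 85.6 ± 13.5 FPKM (SD over all 9 libraries, 3 groups of 3), 7.98 times the median of these genes. Mrpl54, a mitochondria-specific protein of the large subunit, followed at 68.4 ± 16.4 FPKM. Next came Mrpl43 at 54.3 ± 6.69 and Mrpl27 at 45.2 ± 8.07 FPKM, both of the large subunit. Mrps26 stood at 40.0 ± 6.62 and Mrps18a at 38.9 ± 5.92 FPKM. For each pair of neighbours in this order the ranges of mean ± SD overlapped. At the other end of the tested genes, Mrpl35 had 3.61 ± 1.30 FPKM. Mrps31 had 5.16 ± 1.54 FPKM, and Mrpl45, which tethers the ribosome at the inner membrane next to the exit of the protein tunnel, had 5.31 ± 1.78 FPKM.

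**Figure D2:**
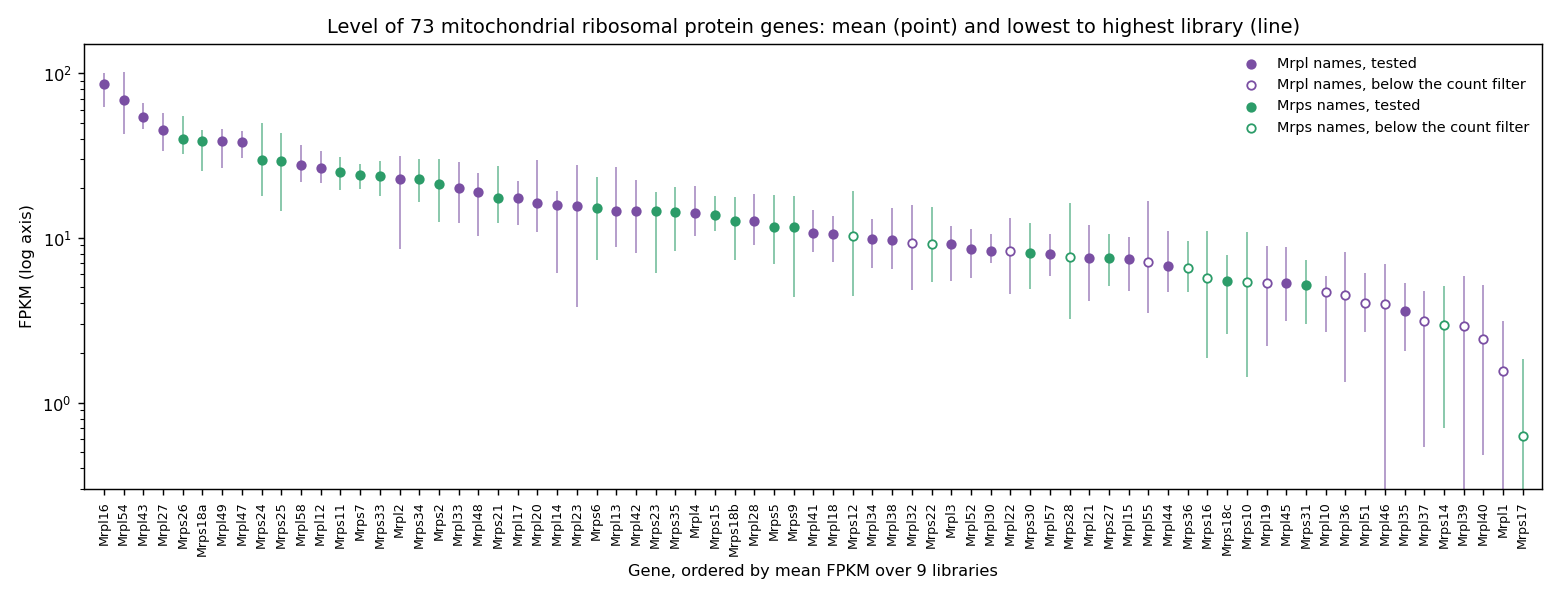
Mean FPKM over 9 libraries (points, log axis) and the range from the lowest to the highest library (lines) for the 73 genes with counts, ordered by mean. Lines that reach the lower edge belong to genes at 0 in at least 1 library. Mrpl16 and Mrpl54 lead at 85.6 and 68.4 FPKM, and genes below the count filter (open points) lie mostly on the right.

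Subunits of 1 complex were thus not read at equal levels. These are levels as counted, and whether the counts are reads of each gene's own strand was not tested. In the flexible stalk that binds translation factors, Mrpl12 had 26.4 FPKM and Mrpl10, its anchor, 4.68, with Mrpl10 below the count filter at 58 counts over 9 libraries. Of the 3 Mrps18 paralogues, which occupy different places on the ribosome, Mrps18a stood at 38.9, Mrps18b at 12.7 and Mrps18c at 5.45 FPKM. Mrpl47, near the tunnel exit, had 38.1 FPKM and Mrpl44, with a ribonuclease-like fold, 6.78. Mrps24 had 29.6 FPKM, Mrps30 8.09, Mrps28 7.67 and Mrpl55 7.13. Mrps36, now known as a part of the 2-oxoglutarate dehydrogenase complex and no longer counted as a ribosomal protein, had 6.55 FPKM.

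Depth limited what could be seen in single genes. The 74 genes held 13433 counts over the 9 libraries, 17.3% of them under Mrpl16 and 10% under Mrpl47. A tested gene of this group had a median of 17 counts per library, against 24 for all genes tested. The 21 untested genes had 0 to 77 counts over all libraries, among them Mrps22 and Mrps28 with 77 each and Mrpl1 with 18. Just inside the filter lay Mrpl21 with 70 and Mrpl35 with 74 counts, and the filter also weighs how counts spread over libraries. Within groups, the squared difference between library pairs was 0.973 times the counting variance (median of 9 pairs, over genes with at least 10 counts in the pair), range 0.840 to 1.21. For all tested genes it was 1.37 times, range 1.22 to 2.18. Replicate libraries thus differed in these genes by about the counting error. At few counts that error makes up most of any spread, and the ratio grows with counts. The values therefore do not show that these genes vary less between libraries than others.

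The summed level of all 74 genes was lowest in Ctrl and highest in ChryM, on library totals and on library sizes adjusted by TMM (trimmed mean of M-values, which centres most genes at no change). As CPM of the library total, the Ctrl libraries had 1813.6, 1871.2 and 1805.9, the Model libraries 1957.9, 1898.2 and 1985.1, and the ChryM libraries 2065.9, 2109.6 and 2102.4. The 3 groups did not overlap, nor did they on TMM sizes, at 1717.3 to 1797.2 in Ctrl, 1981.9 to 2045.2 in Model and 2059.8 to 2163.1 in ChryM. Means on library totals were 1830.2 ± 35.7, 1947.1 ± 44.4 and 2092.6 ± 23.4 CPM (SD, n = 3 each), ratios of 1.06 for Model to Ctrl, 1.07 for ChryM to Model and 1.14 for ChryM to Ctrl. These sums are descriptions, with no test.

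On library totals, sums of the 44 Mrpl genes were 1263.0, 1248.3 and 1240.6 CPM in Ctrl, 1364.3, 1361.1 and 1360.1 in Model, and 1427.9, 1428.3 and 1516.2 in ChryM, again without overlap. On TMM sizes Ctrl, at 1177.2 to 1234.7, still lay below the others, while Model (1401.3 to 1422.2) and ChryM (1397.1 to 1560.0) overlapped. On library totals, sums of the 30 Mrps genes were 550.5, 622.9 and 565.3 in Ctrl, 593.6, 537.1 and 625.0 in Model, and 638.0, 681.3 and 586.2 in ChryM, where all groups overlapped. On TMM sizes the Mrps sums of Ctrl (521.3 to 587.4) and ChryM (603.1 to 666.4) did not overlap, and Model (560.8 to 644.0) overlapped both. The ratio of Model to Ctrl was 1.09 for Mrpl and 1.01 for Mrps names on library totals, and 1.18 and 1.09 on TMM sizes.

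Without Mrpl16 the Mrpl sum had a ratio of Model to Ctrl of 1.02 on library totals and 1.10 on TMM sizes. On library totals, all genes but Mrpl16 and Mrpl47 stood at 1383.9 ± 81.9 CPM in Ctrl, 1390.6 ± 49.1 in Model and 1490.7 ± 26.0 in ChryM (SD, n = 3 each). In those 72 genes the ChryM libraries, at 1474.5 to 1520.7 CPM, lay above each Model library (1334.1 to 1423.4) and above each Ctrl library (1305.2 to 1468.7). The scale changes this: on TMM sizes the same 72 genes stood at 1299.0 to 1385.1 in Ctrl, 1392.9 to 1483.8 in Model and 1472.5 to 1517.1 in ChryM, so that each Model library lay above each Ctrl library and Model and ChryM overlapped. Ratios were then 1.09, 1.03 and 1.12 for Model to Ctrl, ChryM to Model and ChryM to Ctrl.

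**Figure D3:**
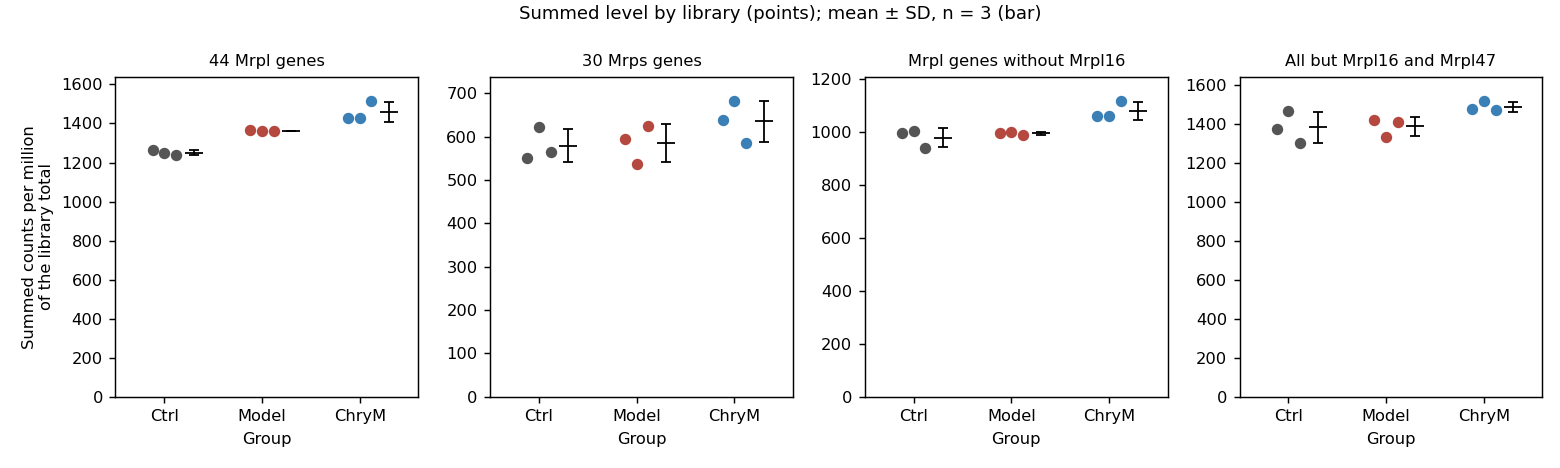
Summed CPM of the library total in each library (points), with mean ± SD (n = 3, bars), for 44 Mrpl genes, 30 Mrps genes, the Mrpl genes without Mrpl16, and all genes but Mrpl16 and Mrpl47. The Mrpl sums lie at 1240.6 to 1263.0 in Ctrl and at 1427.9 to 1516.2 in ChryM, and the Model libraries lie within the Ctrl range for the 72 genes in the last panel, which on TMM sizes, not drawn, they do not (1392.9 to 1483.8 in Model, 1299.0 to 1385.1 in Ctrl).

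The comparison of Model with Ctrl asks what the diabetes and stress procedure changed. Of the 53 tested genes, 3 rose (Mrpl16, Mrpl23 and Mrpl54) and 0 fell, at an adjusted p under 0.05 (the quasi-likelihood test of edgeR, Benjamini-Hochberg adjustment over all 7073 genes). That is 5.66% higher, against a background of 7.04% of all tested genes higher and 5.39% lower, so the share is near the background. At an unadjusted p under 0.05, 7 were higher and 0 lower (background 12.1% and 11.4%). The DESeq2 Wald test called 1, but gave no adjusted p for 72 of the 74 genes, among them 2 of the 3 called by edgeR. The median log2 fold change was 0.13 over these genes and -0.02 over all genes tested, and 60.4% against 48.2% were positive. In 6 genes every Model library lay above every Ctrl library (background 13.4%), and in 1, Mrps30, below (background 12.7%). Values of single genes from here on are CPM on TMM-adjusted library sizes.

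Mrpl16 had 252, 232 and 301 CPM in Ctrl, 384, 379 and 383 in Model, and 368, 361 and 410.1 in ChryM. The Ctrl libraries lay below all 6 others, and Model and ChryM overlapped. Model was higher than Ctrl by 0.55 ± 0.09 on the log2 scale (SE), 1.46-fold, with an adjusted p of 1.51e-06 by edgeR. The call held in each of 20 alternative settings, with adjusted p-values up to 0.0144.

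Mrpl23, a bacterial-type protein at the tunnel exit, had 11.8, 10.5 and 4.11 CPM in Ctrl, 20.5, 31.4 and 12.0 in Model, and 23.2, 22.6 and 17.4 in ChryM. Ctrl did not overlap the other groups, but its highest and the lowest Model library nearly met. Model was higher by 1.18 ± 0.38 (log2, SE) with an adjusted p of 0.0223 by edgeR. Only 22 counts stood behind the Ctrl mean. Without Ctrl library 3 the difference was 0.88 (adjusted p = 0.147), and without Model library 2 it was 0.81 (adjusted p = 0.297). The call was also lost by limma-voom (adjusted p = 0.0608) and by limma on log2(FPKM + 1) (0.0843) and log2(FPKM + 0.1) (0.0929).

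Mrpl54 had 35.4, 28 and 39.7 CPM in Ctrl, 53.7, 52.9 and 50.7 in Model, and 50.1, 46.3 and 72.4 in ChryM. The Ctrl libraries were lowest, and Model and ChryM overlapped. Model was higher by 0.61 ± 0.22 (log2, SE), with an adjusted p of 0.0436 by edgeR, close to the threshold. The call was lost when Ctrl library 1 (adjusted p = 0.0899) or 2 (0.232), or Model library 1 (0.109), 2 (0.0977) or 3 (0.0884) was left out. It was also lost on library totals (0.12), with no count filter (0.0752), with a mean count of at least 30 (0.0539), with a replicate block (0.0551), and by limma on log2(FPKM + 1) (0.0519) and log2(FPKM + 0.1) (0.0561), so in 11 of 19 alternatives.

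Next by p were Mrpl2 (0.75 ± 0.32, adjusted p = 0.112) and Mrps25 (0.62 ± 0.29, adjusted p = 0.157), which did not pass by edgeR. Mrpl2 passed without Model library 2 (0.99, adjusted p = 0.0375). In the other direction the smallest p-values belonged to Mrpl35 at -0.79 ± 0.48, Mrpl28 at -0.45 ± 0.31, Mrps30 at -0.54 ± 0.42, Mrps6 at -0.48 ± 0.41 and Mrps24 at -0.33 ± 0.28 (log2, SE). Their edgeR adjusted p-values lay between 0.318 and 0.528. Mrps30, which sits in the large subunit despite its name, had 11.8, 17.5 and 12.3 CPM in Ctrl and 9.47, 9.93 and 9.33 in Model, with 34 and 19 counts in all.

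The comparison of ChryM with Model asks what differed after chrysophanol. Of the 53 genes, 0 rose and 0 fell by edgeR, where 3.86% of all tested genes were called higher and 4.41% lower. At an unadjusted p under 0.05, 2 were higher (Mrpl42 and Mrps24) and 1 lower (Mrps2), where the background was 9.33% and 10%. The DESeq2 Wald test called 0, and gave no adjusted p for 64 of the 74 genes. The median log2 fold change was 0.04 against 0.00 for all genes tested, and 54.7% against 50.3% were positive. Every ChryM library lay above every Model library for 7 genes (background 11.8%) and below for 2 (background 11.7%).

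Mrpl42 had the smallest p. Its levels were 17.7, 22.2 and 17.8 CPM in Ctrl, 20.5, 11.6 and 12.0 in Model, and 30.5, 23.7 and 22.8 in ChryM. The ChryM libraries were the highest 3, and Model and Ctrl overlapped. ChryM was above Model by 0.81 ± 0.32 (log2, SE), with an adjusted p of 0.104 by edgeR. On log2(FPKM + 1) values the limma test called it, with an adjusted p of 0.0487. Mrps24 differed by 0.54 ± 0.27 (adjusted p = 0.258), where 1 ChryM library stood at 46.4 CPM and the other two at 24.9 and 25.5.

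Mrps2, a bacterial-type protein of the small subunit, had 42.5, 65.4 and 53.4 CPM in Ctrl, 50.5, 67.8 and 44 in Model, and 40.3, 28.2 and 46.9 in ChryM. All groups overlapped, with 2 of the 3 ChryM libraries below every Ctrl and Model library. ChryM stood at -0.49 ± 0.21 against Model (log2, SE, adjusted p = 0.163 by edgeR). The next genes by p were Mrps18b at 0.61 ± 0.35, Mrpl47 at 0.18 ± 0.11 and Mrpl35 at 0.78 ± 0.48 on the higher side. On the lower side they were Mrpl4 at -0.54 ± 0.30, Mrpl17 at -0.49 ± 0.30, Mrpl15 at -0.38 ± 0.29 and Mrps27 at -0.40 ± 0.31. Their edgeR adjusted p-values lay between 0.319 and 0.531.

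The genes called in Model against Ctrl stood nearly level between ChryM and Model. Mrpl16 was at -0.01 ± 0.09, Mrpl23 at 0.04 ± 0.31 and Mrpl54 at 0.09 ± 0.19 (log2, SE), with edgeR adjusted p-values of 0.974, 0.971 and 0.867. Both comparisons use the Model libraries, so their values are given side by side and no relation between them was tested.

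**Figure D4:**
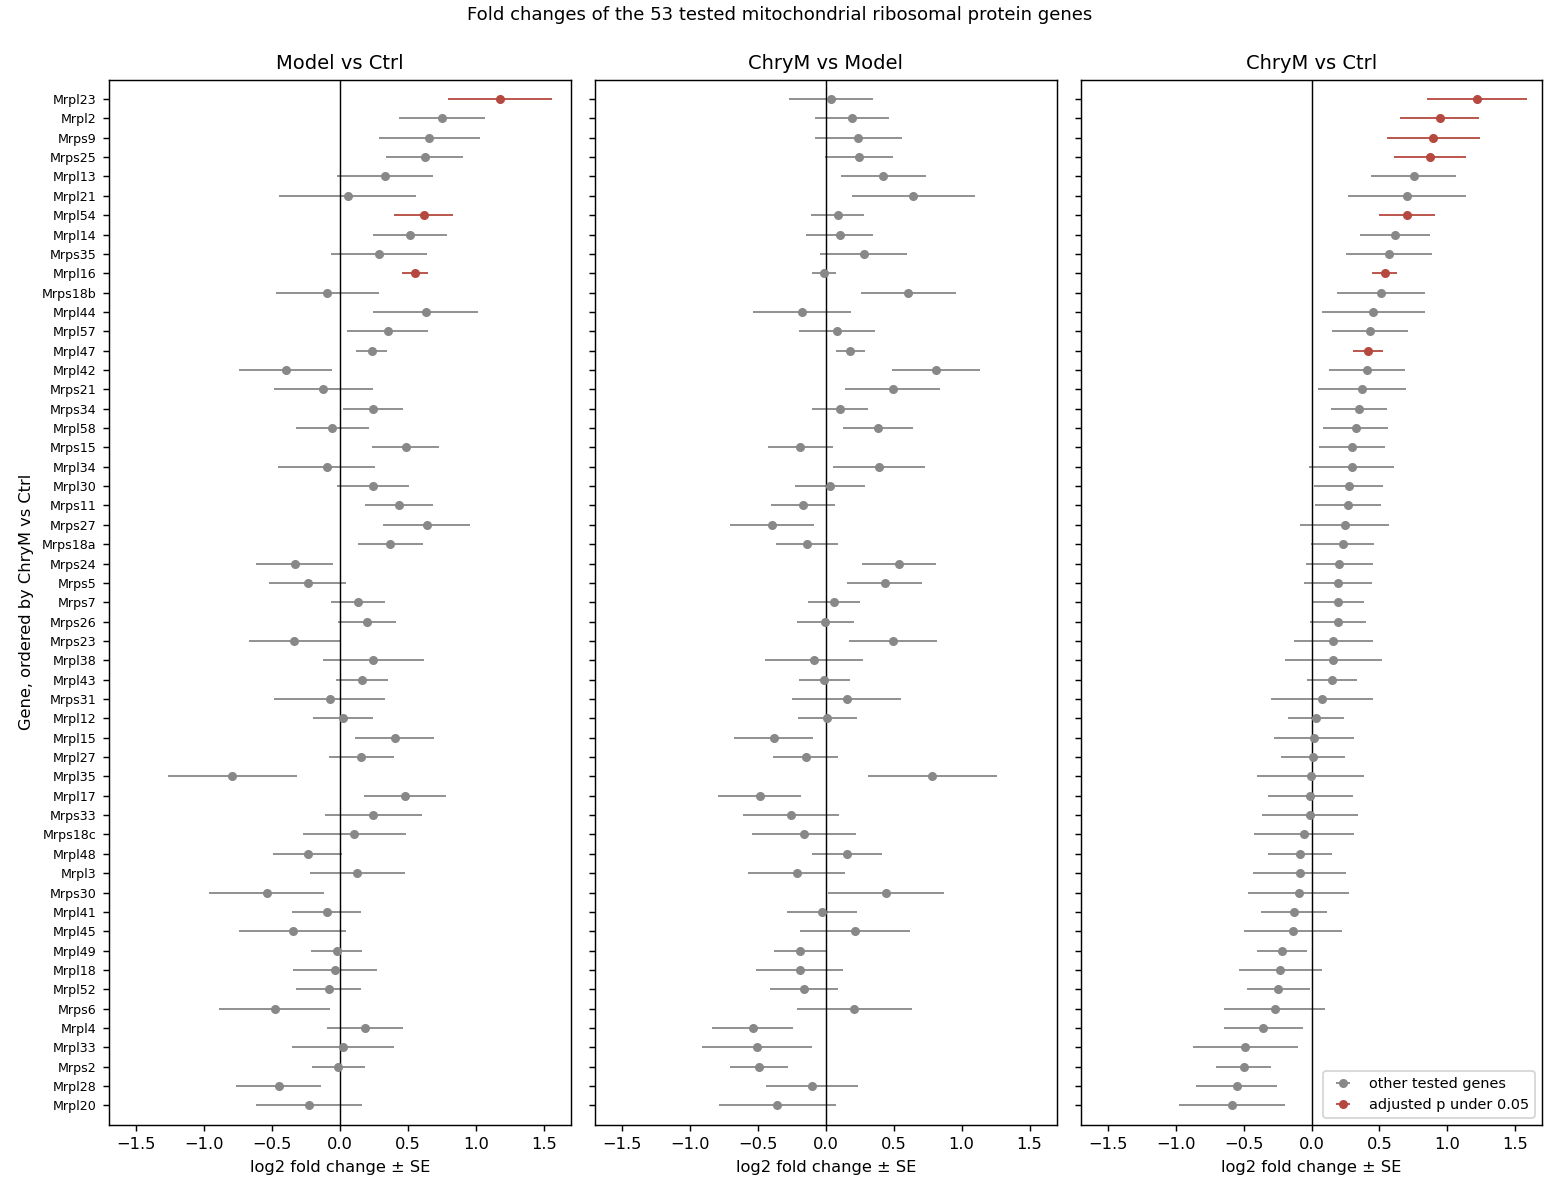
log2 fold changes ± SE of the 53 tested genes in 3 comparisons, ordered by ChryM against Ctrl, with genes at an adjusted p under 0.05 in red. The left panel holds 3 such genes, the middle panel 0 and the right panel 7, all higher.

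The comparison of ChryM with Ctrl shows where treated rats stood relative to normal ones. Of the 53 genes, 7 rose (Mrpl16, Mrpl47, Mrpl54, Mrpl23, Mrps25, Mrpl2 and Mrps9) and 0 fell by edgeR. That is 13.2% higher, against 9.83% of all tested genes higher and 8.96% lower. At an unadjusted p under 0.05, 9 were higher and 1 lower (background 14.9% and 14.7%). The DESeq2 Wald test called 2, but gave no adjusted p for 49 of the 74 genes, among them 2 of the 7 called by edgeR. The median log2 fold change was 0.20 against -0.01 for all genes tested, and 66.0% against 48.6% were positive. Every ChryM library lay above every Ctrl library for 9 genes and below for 0, where the background was 15.8% in either direction.

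By subunit name, 5 of 32 tested Mrpl genes (15.6%) and 2 of 21 Mrps genes (9.52%) rose, against 9.83% of all tested genes. By origin, 5 of 32 genes with a bacterial homologue (15.6%) and 2 of 21 mitochondria-specific genes (9.52%, Mrpl54 and Mrps25) rose. The shares of 9.52% are near the background. Whether these shares differ was not tested.

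In Mrpl16 ChryM was above Ctrl by 0.54 ± 0.09 (log2, SE), 1.45-fold, with an adjusted p of 8.28e-07 by edgeR. The call held in each of 20 alternative settings. Mrpl47 had 160, 147 and 197 CPM in Ctrl, 174, 210.1 and 205 in Model, and 219.8, 215 and 236 in ChryM. Its ChryM libraries lay above all others, while Model and Ctrl overlapped. The difference was 0.42 ± 0.11 (log2, SE) with an adjusted p of 0.00176 by edgeR, and it was kept whichever library was left out (adjusted p up to 0.0447). By limma the call was lost on log2(FPKM + 1) (adjusted p = 0.0965) and on log2(FPKM + 0.1) (0.0982).

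For Mrpl54 the difference was 0.70 ± 0.20 (adjusted p = 0.00695 by edgeR), and it failed without Ctrl library 2 (0.57, adjusted p = 0.0745) or ChryM library 3 (0.49, adjusted p = 0.154), and by DESeq2 (adjusted p = 0.0738). For Mrpl23 it was 1.22 ± 0.37 (adjusted p = 0.00752 by edgeR), and it failed without Ctrl library 3 (0.92, adjusted p = 0.0823) and by limma on log2(FPKM + 0.1) (adjusted p = 0.0513). Both genes had Ctrl libraries below all ChryM libraries.

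Mrps25, a mitochondria-specific protein of the small subunit, had 13.0, 23.4 and 20.5 CPM in Ctrl, 36.3, 21.5 and 29.3 in Model, and 34.2, 39.5 and 29.5 in ChryM. ChryM lay above Ctrl in every library, by 0.87 ± 0.26 (log2, SE, adjusted p = 0.00971 by edgeR), with Model between and overlapping both. The call was lost without Ctrl library 1 (0.65, adjusted p = 0.122) or ChryM library 2 (0.76, adjusted p = 0.0766), and by DESeq2 (adjusted p = 0.102).

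Mrpl2, a bacterial-type protein close to the peptidyl transferase centre, had 8.26, 19.9 and 17.8 CPM in Ctrl, 33.1, 14.9 and 28 in Model, and 25.6, 31.6 and 30.8 in ChryM. Ctrl was again below every ChryM library and overlapped Model. The difference was 0.94 ± 0.29 (log2, SE) with an adjusted p of 0.0121 by edgeR. Without Ctrl library 1 it was 0.63 (adjusted p = 0.180), and without ChryM library 2 it was 0.89 (adjusted p = 0.0564). The call was also lost by DESeq2 (adjusted p = 0.116) and by limma on log2(FPKM + 1) (0.0698) and log2(FPKM + 0.1) (0.0766).

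Mrps9, a bacterial-type protein of the small subunit head, had 15.3, 5.84 and 12.3 CPM in Ctrl, 22.1, 11.6 and 18.7 in Model, and 17.1, 24.9 and 20.1 in ChryM. The Ctrl and ChryM libraries did not overlap, with 27 and 51 counts in all. The difference of 0.90 ± 0.34 (log2, SE) had an adjusted p of 0.0479 by edgeR and is the weakest of the 7. It failed without Ctrl library 2 (0.57, adjusted p = 0.326) or 3 (0.97, 0.0704), without ChryM library 2 (0.74, 0.220) or 3 (0.91, 0.0867), and without Model library 2 (0.89, 0.0513), which enters through the shared estimate of the spread. It also failed on library totals (0.0713), with no count filter (0.0847), in a fit that is not robust (0.0529), with a replicate block (0.0517), and by limma on log2(FPKM + 1) (0.0968) and log2(FPKM + 0.1) (0.103), so in 11 of 18 alternatives.

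**Figure D5:**
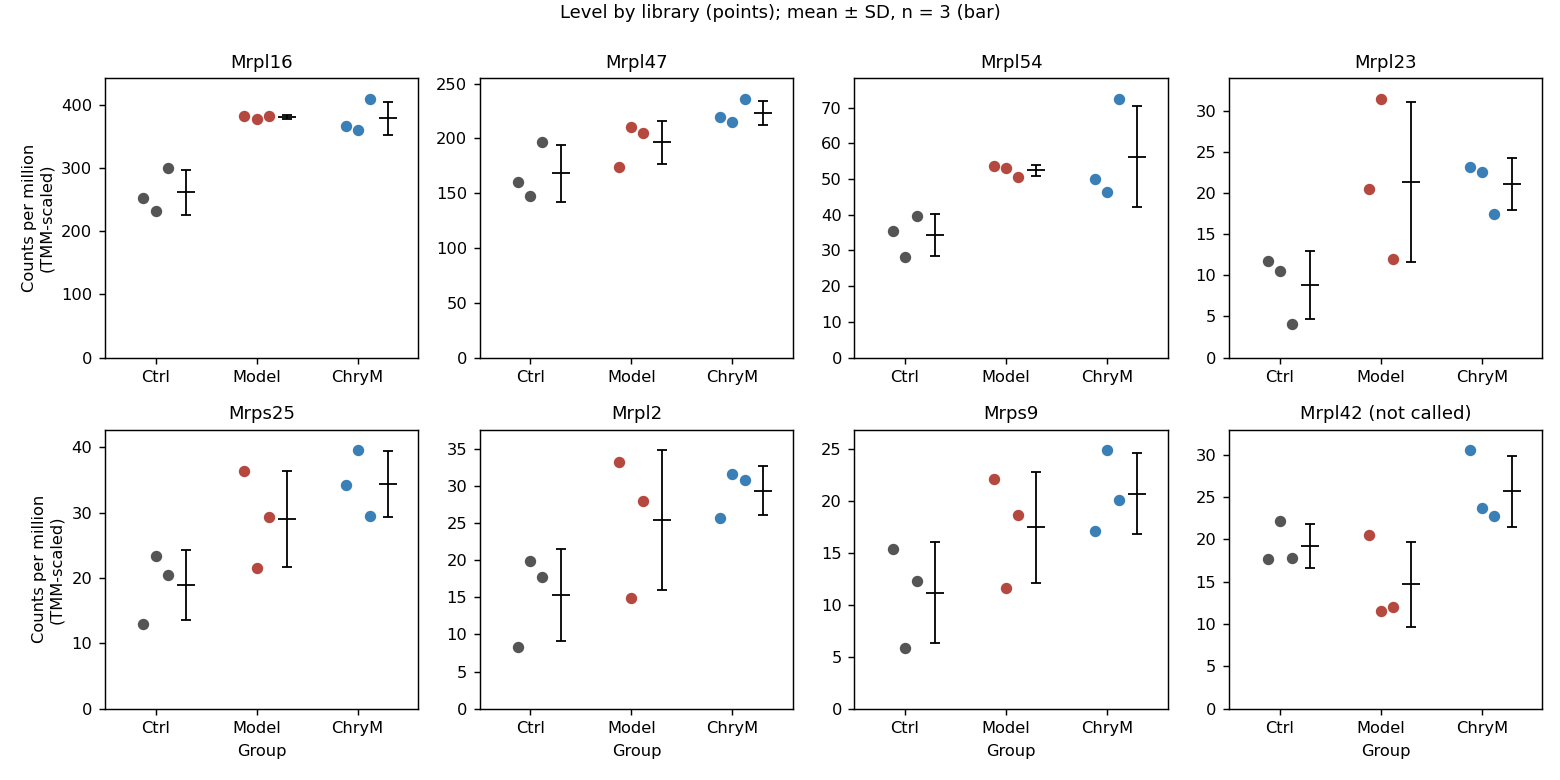
CPM on TMM-adjusted library sizes in each library (points), with mean ± SD (n = 3, bars), for the 7 genes called in any comparison and for Mrpl42, which was not called. In the 7 called genes, which were picked by a test on these same libraries, each ChryM library lies above each Ctrl library. Mrpl16 is at 232 to 301 in Ctrl and at 361 to 410.1 in the other groups.

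On the lower side, Mrps2 stood at -0.50 ± 0.20 (log2, SE) with an adjusted p of 0.0687 by edgeR. It passed without Ctrl library 1 (-0.65, adjusted p = 0.0334), without ChryM library 3 (-0.67, adjusted p = 0.0357), on library totals (adjusted p = 0.0405) and among genes with a mean count of at least 30 (adjusted p = 0.0256). Mrpl28 was at -0.55 ± 0.30, Mrpl20 at -0.58 ± 0.39, Mrpl33 at -0.49 ± 0.39 and Mrpl4 at -0.35 ± 0.29, with edgeR adjusted p-values between 0.206 and 0.451.

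Of the genes named for their place in the ribosome, Mrpl12, Mrpl45, Mrpl44, Mrps18a and Mrps18c were not called. Mrpl12, of the stalk, had 41.3, 42.0 and 38.3 CPM in Ctrl, 39.5, 48.0 and 37.3 in Model, and 52.5, 37.3 and 34.8 in ChryM, with the groups overlapping. Its differences from Ctrl were 0.02 ± 0.22 in Model and 0.03 ± 0.21 in ChryM (log2, SE). Mrpl45 stood at -0.35 ± 0.40 and -0.14 ± 0.36, Mrpl44 at 0.63 ± 0.39 and 0.45 ± 0.38, Mrps18a at 0.37 ± 0.24 and 0.23 ± 0.23, and Mrps18c at 0.10 ± 0.38 and -0.05 ± 0.37 in the same order. With SEs of 0.21 to 0.40, changes of that size were not detectable at this depth.

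Some of these genes share their locus with others. In RefSeq (GRCr8) all 74 were found, 1 of them by an older name, and of the 73 with counts 19 overlapped another gene and 54 none. Median levels were 11.6 and 10.7 FPKM. Among all protein-coding genes of known strand, those overlapping a gene on the opposite strand had a median of 2.17 FPKM (3851 genes) and those overlapping none 0.850 (9649 genes). Among these genes, 10 with an opposite-strand overlap had a median of 13.5 FPKM and 43 with none 11.7.

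Mrpl16 lies wholly inside the Stx3 gene, which encodes a syntaxin. Stx3 had 104, 105 and 105 CPM in Ctrl, 101, 116 and 125 in Model, and 123, 118 and 142 in ChryM, fewer than Mrpl16 in each library. Its difference from Ctrl was 0.13 ± 0.14 in Model (adjusted p = 0.644) and 0.28 ± 0.13 in ChryM (adjusted p = 0.127 by edgeR). Mrpl47, on the minus strand, overlaps Ndufb5, a complex I subunit, and Actl6a, which are on the plus strand. Their names had 172 and 60 counts against 1343 for Mrpl47. Whether counts under any of these names come from the other strand was not tested. Ndufb5 stood at 0.25 ± 0.27 in ChryM against Ctrl (adjusted p = 0.570 by edgeR). Mrps9 overlaps a pseudogene listed at 0. The other 4 called genes overlap none. Of the 41 tested genes that overlap no other gene, 4 were called in ChryM against Ctrl. That share is near the 9.83% of all tested genes called higher there. Mrpl57 and Mrpl55, on the plus strand, overlap minus-strand genes with far more counts. Ska3 had 4392 against 160 for Mrpl57, and Guk1 973 against 72 for Mrpl55. How reads in the shared bases were assigned, and from which strand they came, was not tested.

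Some proteins of the mitochondrial ribosome carry other names. Gadd45gip1, a large subunit protein, had 373, 343 and 375 CPM in Ctrl, 475, 486 and 473 in Model, and 438, 468 and 503.9 in ChryM. Its Ctrl libraries lay below all 6 others. It rose in Model by 0.40 ± 0.09 (adjusted p = 2.83e-04) and in ChryM by 0.37 ± 0.08 against Ctrl (adjusted p = 3.70e-04 by edgeR). Dap3 stood at -0.11 ± 0.33 and -0.16 ± 0.31 in the same comparisons and Chchd1 at 0.42 ± 0.47 and 0.35 ± 0.45, none of them called. Ptcd3 was below the count filter with 83 counts.

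The neighbouring steps of mitochondrial gene expression were read from fixed lists. Of all tested genes, 7.04% were called higher and 5.39% lower in Model against Ctrl. These shares were 3.86% and 4.41% in ChryM against Model, and 9.83% and 8.96% in ChryM against Ctrl. Whether any list differs from them was not tested. Of 5 tested translation factors, 1 rose in Model against Ctrl: Guf1, a back-translocating elongation factor homologue, by 0.61 ± 0.10 (adjusted p = 4.20e-07 by edgeR). Gfm2, which recycles ribosomes, rose in ChryM against Model by 0.44 ± 0.10 (adjusted p = 4.47e-04), and both rose against Ctrl. Gfm2 had 225, 195 and 279 CPM in Ctrl, 239.9, 276 and 247 in Model, and 332, 358 and 344 in ChryM, so ChryM lay above the rest. Of 7 tested aminoacyl-tRNA synthetase genes, Cars2 rose in Model (0.45 ± 0.15, adjusted p = 0.0391), with 1 Model library at 146 CPM and the others at 96.3 and 81.3. Kars1, shared by cytosol and mitochondria, fell in ChryM by 0.78 on the log2 scale against Model (SE 0.15, adjusted p = 7.3e-05 by edgeR) and by 0.67 against Ctrl (SE 0.15, adjusted p = 2.55e-04).

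Of 5 tested genes for ribosome assembly and rRNA modification, Tfb1m, which methylates the small ribosomal RNA, rose in Model by 0.43 ± 0.14 (adjusted p = 0.0314) and in ChryM by 0.78 ± 0.13 against Ctrl (adjusted p = 6.09e-07 by edgeR). Its levels were 103, 72.4 and 94.5 CPM in Ctrl, 122, 104 and 133 in Model, and 137, 174 and 149 in ChryM. The groups did not overlap, and ChryM against Model did not pass (0.35 ± 0.13, adjusted p = 0.0761). Of 8 tested genes for mitochondrial transcription and RNA, 1 was called: Slirp, which stabilises mitochondrial mRNAs, rose by 0.60 ± 0.08 in Model and 0.67 ± 0.08 in ChryM against Ctrl (adjusted p = 4.63e-10 and 1.09e-12 by edgeR). Of 11 tested genes for membrane insertion and quality control, Tmem126a alone was called, at 0.52 ± 0.10 and 0.62 ± 0.10 (adjusted p = 4.37e-05 and 1.29e-07 by edgeR). Lonp1, Clpp, Oxa1l, Phb2 and Lrpprc did not pass in any comparison.

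Over the 9 libraries, the called genes of these 6 lists had 599 counts for Cars2, 640 for Kars1, 835 for Tfb1m, 1750 for Tmem126a, 1912 for Gfm2, 1942 for Guf1, 2983 for Gadd45gip1 and 4516 for Slirp. Mrpl47 had 1343 and Mrpl16 2319.

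Summed levels of other marker lists, on library totals, also varied among the libraries. The summed levels of 3 blood markers were 330.1 to 357.9 CPM in Ctrl, 65.1 to 84.0 in Model and 99 to 106.5 in ChryM, and those of 6 astrocyte markers 775.7 to 965.9, 699.6 to 720.8 and 604.4 to 614.3. Neuronal markers (8 genes) summed to 2103.0 to 2418.9, 2199.3 to 2244.1 and 1969.5 to 2062.2 CPM, 6 microglia markers to 133.7 to 152.0, 126.8 to 147.5 and 86.9 to 108.5, and 4 endothelial markers to 37.1 to 57.0, 28.5 to 36.2 and 13.5 to 23.1. No marker was at 0 in every library. The sums follow the genes with the most counts and hide single genes. Of 6 tested neuronal markers, 1 was called higher and 2 lower by edgeR in Model against Ctrl, and likewise in ChryM against Ctrl. Wfs1 stood at -1.52 ± 0.23 and Snap25 at 0.25 ± 0.07 in Model against Ctrl (log2, SE). Of 8 oligodendrocyte markers, 8 were called lower in Model against Ctrl, and 5 lower and 1 higher in ChryM against Ctrl. Shares of all tested genes are given above. The part of these values in the levels of the mitochondrial ribosomal protein genes was not tested.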

How the data were processed

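Poly(A) RNA of 9 hippocampal libraries was measured. The deposited count table holds whole-number counts per gene, and the deposited FPKM table equals count over length and library total in 100% of values (tolerance 1e-09). The submitters' processing notes name HISAT2 and DESeq2 without a version. Which program counted the reads, with what annotation, build and use of strand, is not given in the sources used here. Counts were tested with edgeR 4.0.16 (R 4.3.3): filterByExpr, TMM, robust quasi-likelihood fit of all 9 libraries (6 residual degrees of freedom), Benjamini-Hochberg adjustment over 7073 genes, called at an adjusted p under 0.05. The SE is the larger of the test's and that of counting. The fit was tested on simulated data. Alternatives used DESeq2 1.42.0 and limma 3.58.1. Library totals of 631119 to 866048 set the precision.

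Genes were named by rule: all called, the 5 smallest p-values in each direction and comparison, the 6 highest and 3 lowest tested by FPKM, 13 chosen for their place in the ribosome, called genes of the lists, and mitoribosomal genes under other names. Further genes named in a clause were chosen after their values were seen. The members and lists were chosen with earlier results of these data known.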

Additional observations from a re-analysis of the deposited data

How the results depend on the processing

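Of 588 values of single genes under alternative settings, 540 kept their direction and side of the threshold, 42 were no longer called, 6 became called and 0 changed direction. Another 23 values, for which DESeq2 gave no adjusted p, are not among them. In Model against Ctrl, 1 gene was called by DESeq2, 1 with a mean count of at least 30, 1 on log2(FPKM + 1) and 1 on log2(FPKM + 0.1), and 2 to 3 with a library left out. The median of 0.13 became 0.0222 on library totals, which moved the median of all genes to -0.13, 0.0476 on log2(FPKM + 1), 0.0514 on log2(FPKM + 0.1), and 0.0877 to 0.204 with a library left out. In ChryM against Model, 1 was called on log2(FPKM + 1) and 0 to 0 with a library left out, and the median was 0.0929 on library totals, 0.097 and 0.0985 on the FPKM scales and -0.0066 to 0.056 with a library left out. In ChryM against Ctrl, 2 were called by DESeq2, 4 with a mean count of at least 30, 4 and 3 on the FPKM scales, 4 among genes overlapping no other (a setting chosen after seeing the data) and 4 to 8 with a library left out, 4 being without ChryM library 2. Its median was 0.138 on library totals, 0.139 with a mean count of at least 30, 0.131 and 0.136 on the FPKM scales, and 0.176 to 0.224 with a library left out. The Mrpl ratio of Model to Ctrl was 1.18 on TMM sizes and 1.02 without Mrpl16, and that of ChryM to Ctrl 1.21 and 1.10. With a replicate block 2, 0 and 6 genes were called. Replicate numbers do not pair the libraries: same-number correlations were -0.03 to 0.04, and 3 of 9 libraries correlated best with their own number. DESeq2 gave no adjusted p for 72, 64 and 49 of the 74 genes. Of the genes called by edgeR, 2, 0 and 2 were without one, and Mrpl54 (0.0738), Mrps25 (0.102) and Mrpl2 (0.116) had one and did not pass in ChryM against Ctrl. Depth limits single genes: with a median of 17 counts per library, small changes were not detectable.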
